A study of Mus musculus with 6 samples.

Results

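The genes described here are 9 synaptic organizers, found by their names among the 24935 genes of the deposited table: the neurexins Nrxn2 and Nrxn3, the neuroligins Nlgn1, Nlgn2 and Nlgn3, and the leucine-rich repeat transmembrane genes Lrrtm1, Lrrtm2, Lrrtm3 and Lrrtm4. Their mRNA was measured in the left hippocampus of C57BL/6 mouse pups at P14 (P for postnatal day). Pups of the air group (3 libraries, 1 per mouse) had been kept with their dams in room air, and those of the hyperoxia group (3 libraries) with their dams in 85% oxygen, in both cases from P2 to P14. Both sexes were used in the study, and neither the sex nor the litter of a library is given. The deposited columns name the group and a number from 1 to 3 that is not an animal's number, so every direction given here follows the group in the column name. No other source of direction was used, and if the names were exchanged every sign would turn. For some genes the mRNA direction printed in the paper is opposite to that of the column names. Which of them is right was not settled here.

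Neurexins are presynaptic membrane proteins that reach across the synaptic cleft and bind several kinds of postsynaptic partner. Neuroligins and LRRTM proteins are such partners, and the pairs hold the sides of a synapse together and help to gather receptors and release sites at it. Neuroligin 1 is found mainly at glutamatergic synapses, neuroligin 2 at GABAergic ones and neuroligin 3 at both, while LRRTM proteins act at glutamatergic synapses. Hippocampal neurons transcribe these genes, and the mix differs between cell types.

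On the deposited values the neurexin and neuroligin transcripts stayed within the spread of the replicates, while 2 of the 4 LRRTM transcripts changed in opposite directions. In hyperoxia the mean of Lrrtm1 fell by 31.2%, and Lrrtm3 rose to 1.58 times its mean in air. The other 7 genes did not pass the test. A gene is said to have passed, or to be called, where its limma adjusted p (Benjamini-Hochberg over all 17778 genes tested) was under 0.05. By this rule 2 of the 9 genes were called, 1 higher and 1 lower, beside 30.5% of all genes tested (14.9% higher and 15.6% lower). With values corrected for the length and GC content of transcripts in each library, 6 were called, 1 higher and 5 lower, beside 34.5% of the 17735 genes tested in that way. The 5 lower were Lrrtm1, Lrrtm4, Nrxn3, Nlgn1 and Nlgn3. The call of Lrrtm3 was lost in 4 of the 16 alternative fits. The groups did not overlap in 3 of the 9 genes, Lrrtm1, Lrrtm2 and Lrrtm3, beside 46.1% of all genes tested. The median log2 fold change of the 9 genes was -0.00099, and that of all genes tested was -0.0072.

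**Figure D1:**
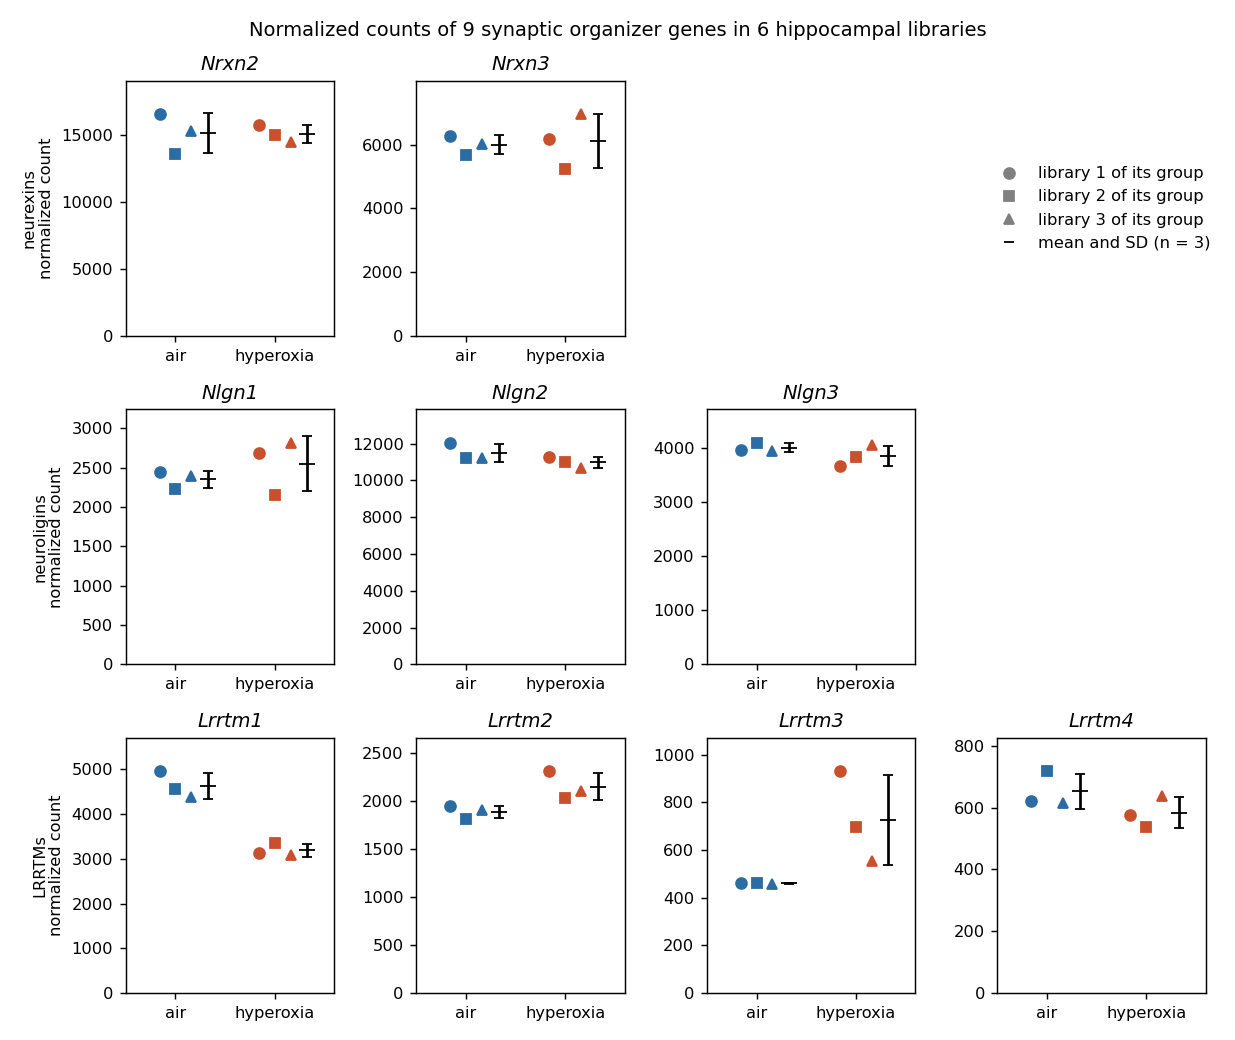
Normalized counts (vertical axes, each starting at 0) of the 9 genes in each library, with air in blue and hyperoxia in red, the marker shape giving the library number within the group, and black bars the mean and SD of 3 libraries. The hyperoxia points of Lrrtm1 (3078 to 3352) lie below all air points (4391 to 4960.2), and those of Lrrtm3 spread from 555 to 929.9 above air points of 456 to 463.

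The values are normalized counts, that is, reads counted per gene and scaled by the authors with 1 size factor for each library. Log2 fold changes are hyperoxia minus air on the log2 of the normalized count plus 1. Each library's values could be turned back into whole reads (100% of values, within 0.01 of a read), and libraries held from 30384052 to 38746972 reads on genes. The 9 genes had from 444 to 17779 reads per library. The leading principal component parted the groups (52.7% of the variance), and hyperoxia library 2 stood apart on the second (19.53%). Markers of the hippocampal fields were present. The summed normalized counts of the CA3 list (3 of 4 genes lower) were 5334 to 5892 in air and 3604 to 4841 in hyperoxia, and those of the dentate granule list (3 of 5 lower) were 17653 to 18510.4 in air and 11598 to 16520.5 in hyperoxia. The CA1 list had 1 of 4 genes higher (Mpped1, log2 fold change 0.35) and none lower past the threshold. Its other 3 genes were not called, with log2 fold changes from -0.32 to -0.23. The CA1 sums were 20028 to 20763 in air and 17874 to 21880 in hyperoxia. Of a list of thalamic markers, 3 of 6 genes were higher, with sums of 2828 to 3152 in air and 4345 to 5661 in hyperoxia, and 5 of 6 oligodendrocyte markers were lower, with sums of 211426 to 321844 in air and 144727 to 177382 in hyperoxia. Choroid plexus markers summed to 532 to 1409 in air and 457 to 8115 in hyperoxia, with library 3 of hyperoxia the highest, and none of the 5 tested was called. No marker in these lists had a mean of 0 in either group. Of 7 general neuron markers 3 were higher and 3 lower, and of 8 interneuron markers 1 and 1. Immature neurons had 1 of 6 higher and 2 lower, astrocytes 2 and 1 of 6, and endothelial cells 2 and 2 of 6. Microglia had 2 of 6 higher, oligodendrocyte precursors 2 of 3 and neocortex 1 of 6, with none lower. Over all genes tested, 14.9% were higher and 15.6% lower. The part of these shifts in the results that follow was not tested, and in bulk tissue fewer cells of a type and less RNA per cell cannot be told apart.

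The LRRTM genes are described first, because the called genes are among them. Lrrtm1 (ENSMUSG00000060780.2; GRCm38 chromosome 6, 77242689 to 77257791, plus strand) encodes a postsynaptic adhesion protein that binds neurexins. Its normalized counts were 4960.2, 4563 and 4391 in air libraries 1 to 3 and 3141, 3352 and 3078 in hyperoxia libraries 1 to 3. Every hyperoxia library lay well below every air library. Mean counts of 4638 ± 292 for air and 3190.4 ± 144 for hyperoxia (SD, n = 3 each) gave a log2 ratio of -0.54 (SE 0.07, 95% CI -0.70 to -0.37, adjusted p = 0.0013 by limma). The change was called under all 16 alternatives, at values between -0.58 and -0.45.

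Lrrtm3 (ENSMUSG00000042846.8; chromosome 10, 63928472 to 64090277, minus strand) is a further neurexin-binding member of the family. Its normalized counts were 459.6, 463 and 456 in air and 929.9, 694 and 555 in hyperoxia. All hyperoxia values lay above the air values, but they were spread widely, with a coefficient of variation of 26.1% in hyperoxia and 0.781% in air, where the SD was smaller than the square root of the mean count. The mean rose from 459 ± 3.59 (SD, n = 3) to 726 ± 189.5 (SD, n = 3), or 0.63 in log2 (SE 0.16, 95% CI 0.27 to 0.98, adjusted p = 0.016 by limma). This call was not stable: it was lost without air library 1 (adjusted p 0.061), 2 (0.057) or 3 (0.053) and in limma without the trend (0.057), while the change itself stayed between 0.43 and 0.80 under all 16 alternatives. With 3 libraries against 3, the exact two-sided permutation test gave p = 0.1 for Lrrtm1, Lrrtm2 and Lrrtm3 alike, the smallest value that it can give.

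The promoter sequences of the called genes are shown because these genes moved in opposite directions. The RefSeq promoter table for GRCm38.p6 held 6 of the 9 genes. Each line gives the 250 bases before a RefSeq start site, 5′ to 3′ on the gene's strand, for Lrrtm1 at chr6:77242227-77242476 (plus strand) and for Lrrtm3 at chr10:64090256-64090505 (minus strand). Searched on both strands were ACGTG (the core of the hypoxia response element), TGACGTCA (the cAMP response element), TGACNNNGC (the antioxidant response element) and GGGCGG (the GC box), and capitals mark a match.
Lrrtm1: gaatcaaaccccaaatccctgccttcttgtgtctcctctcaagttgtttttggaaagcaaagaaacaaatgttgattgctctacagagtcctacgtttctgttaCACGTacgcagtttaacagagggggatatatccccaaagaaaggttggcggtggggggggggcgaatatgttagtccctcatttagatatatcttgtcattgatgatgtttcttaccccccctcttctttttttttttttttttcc
Lrrtm3: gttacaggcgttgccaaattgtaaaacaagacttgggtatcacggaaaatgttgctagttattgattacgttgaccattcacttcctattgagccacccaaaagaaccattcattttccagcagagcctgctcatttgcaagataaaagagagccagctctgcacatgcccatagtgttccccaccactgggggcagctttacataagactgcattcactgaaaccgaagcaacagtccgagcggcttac
The Lrrtm1 window held 1 match to ACGTG, on the opposite strand, and the Lrrtm3 window held none of the 4 motifs. Of all 32851 promoter windows of this length, 16.6% held ACGTG, 1.55% TGACGTCA, 10.2% TGACNNNGC and 32.7% GGGCGG. A match describes letters only.

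Lrrtm2 (ENSMUSG00000071862.2; chromosome 18, 35209003 to 35215024, minus strand) encodes the LRRTM protein best known as a partner of neurexins at excitatory synapses. Its normalized counts were 1944, 1814 and 1902 in air and 2312, 2037 and 2106 in hyperoxia. Hyperoxia was above air in every library, but the groups lay close together, with means of 1887 ± 66.1 (SD, n = 3) and 2151 ± 143 (SD, n = 3). The log2 ratio was 0.19 (SE 0.08, 95% CI 0.019 to 0.36), and its adjusted p of 0.086 by limma missed the threshold. Among the alternatives, whose adjusted p ran from 0.020 to 0.89, it passed only without hyperoxia library 2 (0.23), and correcting for length and GC took it to -0.015.

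Lrrtm4 (ENSMUSG00000052581.13; chromosome 6, 80018877 to 80810143, plus strand) encodes a family member that binds heparan sulphate proteoglycans and is known from dentate granule cells. It had 623, 718 and 617 normalized counts in air and 577, 537 and 637 in hyperoxia, so the groups overlapped. The means were 653 ± 56.8 (SD, n = 3) and 584 ± 50.5 (SD, n = 3), and the difference did not pass the test (log2 ratio -0.16, SE 0.10, 95% CI -0.39 to 0.063, adjusted p = 0.25 by limma). Corrected for length and GC, the ratio was -0.37 and called, and the adjusted p of the alternatives ran from 0.0083 to 0.60.

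**Figure D2:**
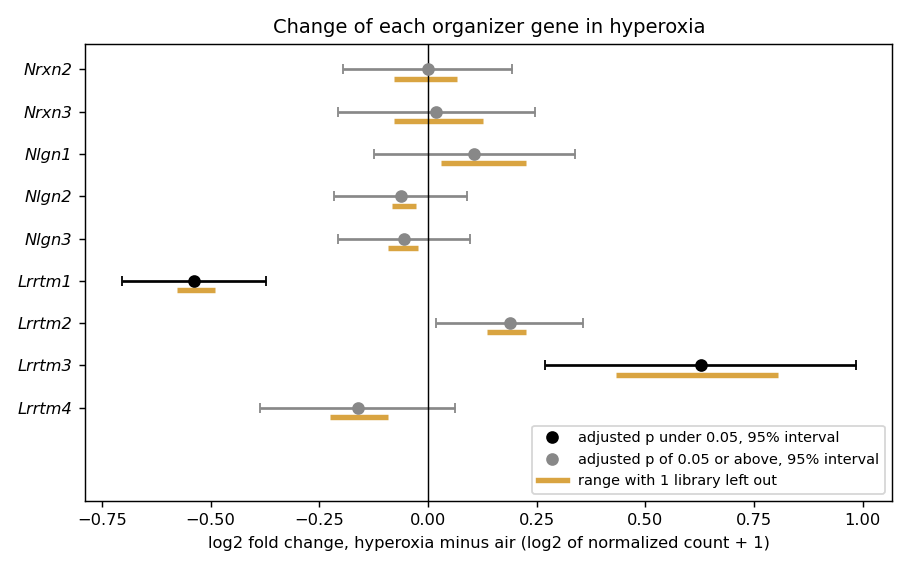
Log2 fold change of each gene (horizontal axis, hyperoxia minus air on log2 of the normalized count plus 1), with the 95% interval from limma as thin bars and the range with 1 library left out as orange bars. Black marks the 2 genes with an adjusted p under 0.05, Lrrtm1 at -0.54 and Lrrtm3 at 0.63, and the intervals of the neurexins and neuroligins all include 0.

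Ratios of 2 genes within a library do not depend on the size factors and show whether members of a family changed differently. All 10 pairs within the 3 families were compared, with p-values adjusted over the 10. The log2 ratio of Lrrtm1 to Lrrtm2 averaged 1.30 ± 0.08 for air and 0.57 ± 0.14 for hyperoxia (SD, n = 3 each), a difference of -0.73. That of Lrrtm1 to Lrrtm3 differed by -1.17, from 3.33 ± 0.09 to 2.16 ± 0.37, and that of Lrrtm1 to Lrrtm4 by -0.38, from 2.83 ± 0.16 to 2.45 ± 0.19 (SD, n = 3 each). Lrrtm3 gained on Lrrtm2 and on Lrrtm4, since Lrrtm2 over Lrrtm3 differed by -0.44 and Lrrtm3 over Lrrtm4 by 0.79, and Lrrtm2 over Lrrtm4 differed by 0.35. In each of the 6 LRRTM pairs the ratios of the groups did not overlap (exact two-sided permutation p = 0.1 each, the smallest possible, 0.17 when adjusted). These ratios share genes and are not independent, and no share over other gene pairs was worked out. Singly, Lrrtm1, Lrrtm2 and Lrrtm3 also did not overlap, beside 46.1% of all genes tested. All 6 ratios kept their direction under the 10 alternatives run for ratios. The size of some did not hold: corrected for length and GC, Lrrtm1 over Lrrtm2 differed by -0.43 and Lrrtm1 over Lrrtm4 by -0.08, the latter with overlapping groups, as also under quantile normalization (-0.36). The neurexin pair and the 3 neuroligin pairs overlapped, with differences from -0.02 to 0.17 and exact permutation p from 0.3 to 1. Without hyperoxia library 2, Nlgn1 over Nlgn2 differed by 0.29 and Nlgn1 over Nlgn3 by 0.28, both without overlap, whereas the length and GC correction gave -0.19 for Nlgn1 over Nlgn2, also without overlap.

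Levels of different genes were compared as normalized counts per kb of annotated exon. In air, Lrrtm1 made up 74.3% ± 1.03 (SD, n = 3) of the summed LRRTM level per kb, and in hyperoxia 62.8% ± 2.78. Lrrtm2 was at 15.2% ± 0.673 in air and 21.3% ± 1.19 in hyperoxia, and Lrrtm3 at 5.26% ± 0.242 and 10.1% ± 2.27. Lrrtm4 was at 5.17% ± 0.542 and 5.69% ± 0.703. The shares of Lrrtm1, Lrrtm2 and Lrrtm3 did not overlap between the groups and those of Lrrtm4 did. Shares depend on each other, so a lower level of Lrrtm1 alone raises the rest. The mean level per kb of Lrrtm1 was 1529 in air and 1052 in hyperoxia, and that of Lrrtm4 was 106 and 94.9. The summed LRRTM level per kb was 2057 ± 101 (SD, n = 3) in air and 1675 ± 68.6 in hyperoxia, and the groups did not overlap.

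**Figure D3:**
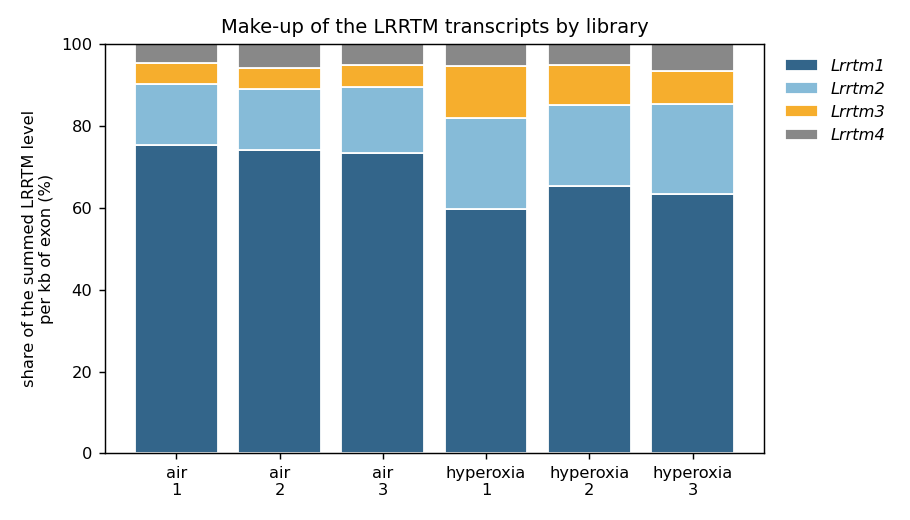
Share of each LRRTM gene in the summed LRRTM level per kb of exon (vertical axis, percent), 1 bar per library. Lrrtm1 takes 73.4% to 75.4% in the air libraries and 59.8% to 65.2% in the hyperoxia libraries, while Lrrtm3 takes 4.99% to 5.44% and 8.17% to 12.6%.

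Lrrtm1, Lrrtm2 and Lrrtm3 each lie inside a gene of the alpha catenin family, on its other strand. Alpha catenins tie cadherins to the actin cytoskeleton. Lrrtm1 lies inside Ctnna2 with no shared exon base, Lrrtm3 inside Ctnna3 likewise, and Lrrtm2 inside Ctnna1 with 95 bases of exon overlap. Ctnna2, the alpha catenin of neurons, had 3476, 3694 and 3689 normalized counts in air and 5393, 5306 and 5529 in hyperoxia, so that it rose while the gene nested in it fell. In log2 this was 0.58 (SE 0.07, adjusted p = 5.9e-04 by limma). The ratio of Lrrtm1 to Ctnna2 counts, which is not divided by length and is compared between groups only, was 1.28 ± 0.126 (SD, n = 3) in air and 0.590 ± 0.0381 in hyperoxia. Ctnna1 was 2299 ± 62.8 (SD, n = 3) in air and 2425 ± 229 in hyperoxia (limma adjusted p = 0.53). Ctnna3 was low, at 14.5 ± 2.98 (SD, n = 3) and 14.8 ± 3.23 counts. The library kit kept the strand, but no source used here says whether the counting did.

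**Figure D4:**
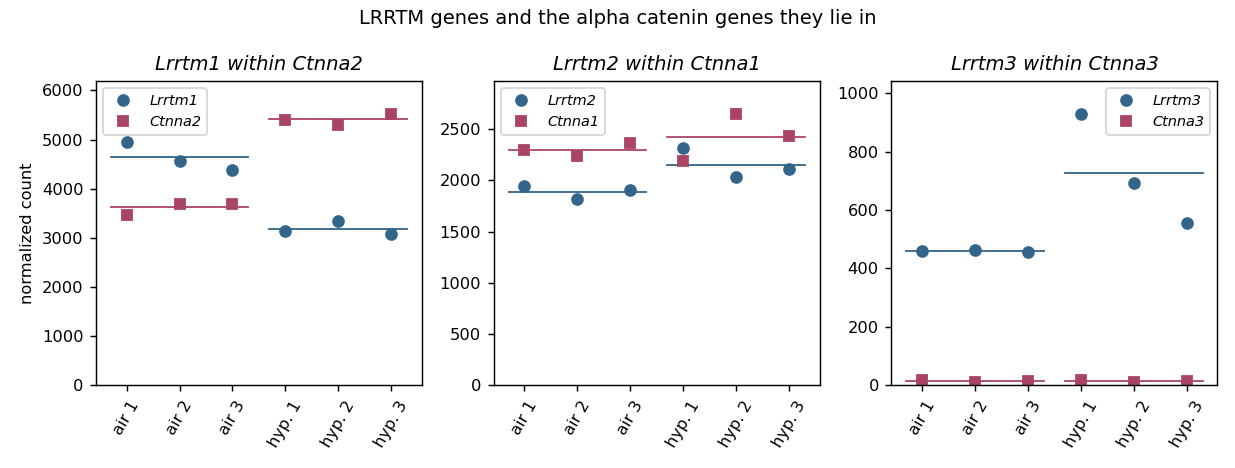
Normalized counts (vertical axes, from 0) of 3 LRRTM genes (circles) and of the alpha catenin genes in which they lie (squares) by library, with group means as lines. From air to hyperoxia the mean of Lrrtm1 goes from 4638 to 3190.4 and that of Ctnna2 from 3620 to 5409; counts are not divided by length, so heights of different genes are not comparable levels.

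Neither of the presynaptic neurexins passed the test. Nrxn2 (ENSMUSG00000033768.16; chromosome 19, 6418731 to 6544169, plus strand) had 16512, 13538 and 15232 normalized counts in air and 15716, 14963 and 14450.1 in hyperoxia. The air libraries spanned the hyperoxia libraries, and the means, 15094 ± 1492 (SD, n = 3) and 15043 ± 637, were nearly equal. The 95% CI of the log2 ratio ran from -0.20 to 0.19 around -0.00099 (SE 0.09, adjusted p = 0.99 by limma). Nrxn3 (ENSMUSG00000066392.11; chromosome 12, 88722876 to 90334935, plus strand) had 6283, 5689 and 6036 counts in air and 6165, 5243 and 6952 in hyperoxia. Here the hyperoxia libraries spanned the air libraries, with library 2 lowest and library 3 highest. The log2 ratio was 0.02 (SE 0.10, 95% CI -0.21 to 0.25, adjusted p = 0.90 by limma). Corrected for length and GC it turned to -0.18 and was called (adjusted p 0.046, the lowest among the alternatives, whose highest was 0.96). Gene counts add the long and short neurexin forms and all splice variants, which were not separated here.

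The neuroligins, the postsynaptic partners of neurexins, were also within the replicate spread. Nlgn1 (ENSMUSG00000063887.13; chromosome 3, 25426215 to 26332460, minus strand) had 2442, 2233 and 2391 normalized counts in air and 2685, 2152 and 2818 in hyperoxia. Hyperoxia libraries 1 and 3 were above all air libraries and library 2 was below them all. Hyperoxia exceeded air by 0.11 in log2 (SE 0.10, 95% CI -0.12 to 0.34, adjusted p = 0.45 by limma). Without hyperoxia library 2 this became 0.22 (adjusted p 0.017) and with the length and GC correction -0.22 (0.020), both called, so that its direction depended on the processing (highest adjusted p among the alternatives 0.85).

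Nlgn2 (ENSMUSG00000051790.15; chromosome 11, 69823122 to 69837784, minus strand) had 12047, 11209.8 and 11217 normalized counts in air and 11289, 11015 and 10689 in hyperoxia. The groups overlapped narrowly, with a log2 ratio of -0.063 (SE 0.07, 95% CI -0.22 to 0.090, adjusted p = 0.51 by limma), and none of the 16 alternatives called the gene. Nlgn3 (ENSMUSG00000031302.16; chromosome X, 101299168 to 101325963, plus strand) had 3958, 4094 and 3941 counts in air and 3670.2, 3829 and 4047 in hyperoxia. The groups overlapped here too (log2 ratio -0.056, SE 0.07, 95% CI -0.21 to 0.096, adjusted p = 0.56 by limma), and only the length and GC correction called it, at -0.19 (adjusted p 0.045, against up to 0.86 under the others). Nlgn3 shares 3823 bases of exon with Gm21986, a gene on the same strand with 28.8 ± 4.86 counts (SD, n = 3) in air. Reads there can belong to either, and no source used here says whether they were counted for one gene or for neither.

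Per kb of exon, the 9 genes spanned a wide range. In air, Nlgn2 was highest at 1986 ± 83.2 counts per kb (SD, n = 3), followed by Lrrtm1 at 1529 ± 96.3, Nrxn2 at 1093 ± 108, Nrxn3 at 476 ± 23.7 and Nlgn3 at 431 ± 9.02. Lower down came Lrrtm2 at 313 ± 10.97, Nlgn1 at 175 ± 8.13, Lrrtm3 at 108 ± 0.844 and Lrrtm4 at 106 ± 9.24. Neighbours in this order did not overlap in air, other than Lrrtm3 and Lrrtm4. The place of Nlgn3 is uncertain, because 3823 of the 9271 exon bases that divide its counts are shared with Gm21986. If reads in the shared bases were not counted, its level per kb is too low here. In hyperoxia Nlgn2 stayed first at 1901 ± 52.0, and Lrrtm1 moved to the third place at 1052 ± 47.4, where its libraries overlapped those of Nrxn2 at 1089 ± 46.1. The pairs Nrxn3 with Nlgn3 and Nlgn1 with Lrrtm3 also overlapped in hyperoxia. Lrrtm3 reached 171 ± 44.6 per kb there, 1.80 times Lrrtm4 at 94.9 ± 8.22. This order depended on the length used: per kb of the longest transcript, Nlgn2 was in the second place and Lrrtm1 in the third in both groups, and Lrrtm3 was 1.42 times Lrrtm4 in hyperoxia with overlapping libraries.

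Genes that work with these organizers were taken from 8 lists, to which the alpha catenins were added as the genes that hold LRRTM genes, 78 genes in all, each of which was tested. Of these, 36 were called, 26 higher and 10 lower in hyperoxia (46.2%, beside 30.5% of all genes tested), with a median log2 fold change of 0.12. Among genes with a mean of at least 50, 39 of 77 were called, beside 36.5% of all genes tested at that filter. The count was 22 to 24 without any 1 air library (beside 17.1% to 20.6% of all genes tested), 23 without hyperoxia library 1 (19.0%) and 47 without hyperoxia library 2 (43.6%). After the length and GC correction 22 were higher and 15 lower, so that 59.5% of the called genes were higher in place of 72.2%. The lists that follow are small, and of all genes tested 14.9% were higher and 15.6% lower. The secreted and membrane-bound extracellular partners of neurexins had 5 of 13 genes higher and 1 lower (46.2% called). Cbln1 and Cbln2, cerebellins that bridge neurexins to delta-type glutamate receptors, rose by 1.43 and 1.21 on the log2 scale (limma adjusted p = 0.021 and 2.9e-04), from 251 ± 49.96 and 206 ± 5.52 counts in air (SD, n = 3). C1ql2, a secreted C1q-like protein of mossy fibre synapses that is also on the dentate granule list, fell by 1.24 (adjusted p 3.5e-04).

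Inside the terminal, neurexins bind the scaffold of CASK, MINT and LIN7 proteins. Of 6 such genes, Cask rose by 0.51 (limma adjusted p = 0.0030), Apba1 by 0.48 (0.0023) and Lin7a by 0.79 (0.0066), and none fell past the threshold. On the neuroligin side, 2 of 8 genes were higher and 3 lower (62.5% called). Mdga2, whose protein binds neuroligins and blocks neurexin binding, rose by 0.58 (limma adjusted p = 0.0061) and the scaffold gene Dlg2 by 0.46 (0.0039). Dlg3, a further scaffold gene, fell by 0.34 (limma adjusted p = 0.012).

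Heparan sulphate carriers and enzymes, through which LRRTM4 and neurexins bind, had 4 of 7 genes higher and none lower (57.1% called). They were led by the glypican gene Gpc6 at 0.92 (limma adjusted p = 3.7e-04) and the syndecan gene Sdc2 at 0.44 (0.0028). The latrophilins, FLRTs and teneurins, a parallel set of adhesion partners, had 6 of 10 higher and none lower, led by Tenm1 at 0.92 (0.010) and Tenm3 at 0.90 (0.018). The LAR-type receptor phosphatases and their partners had 3 of 19 genes higher and 3 lower, or 31.6% called, near the 30.5% of all genes tested. Ptprf was at 0.55 (limma adjusted p = 0.0014) and Ptprd at 0.34 (0.047), whereas Slitrk3 was at -0.53 (0.0032) and Lrrc4 at -0.46 (0.0017). Among 7 splicing regulators of neurexins (57.1% called), Nova1 was higher at 0.44 (0.0048) and 3 were lower, led by Rbfox1 at -0.60 (0.0050) and Ptbp2 at -0.29 (0.019). Of 5 sheddase genes only Bace1 was called, at 0.23 (limma adjusted p = 0.029), and of the 3 alpha catenin genes only Ctnna2.

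**Figure D5:**
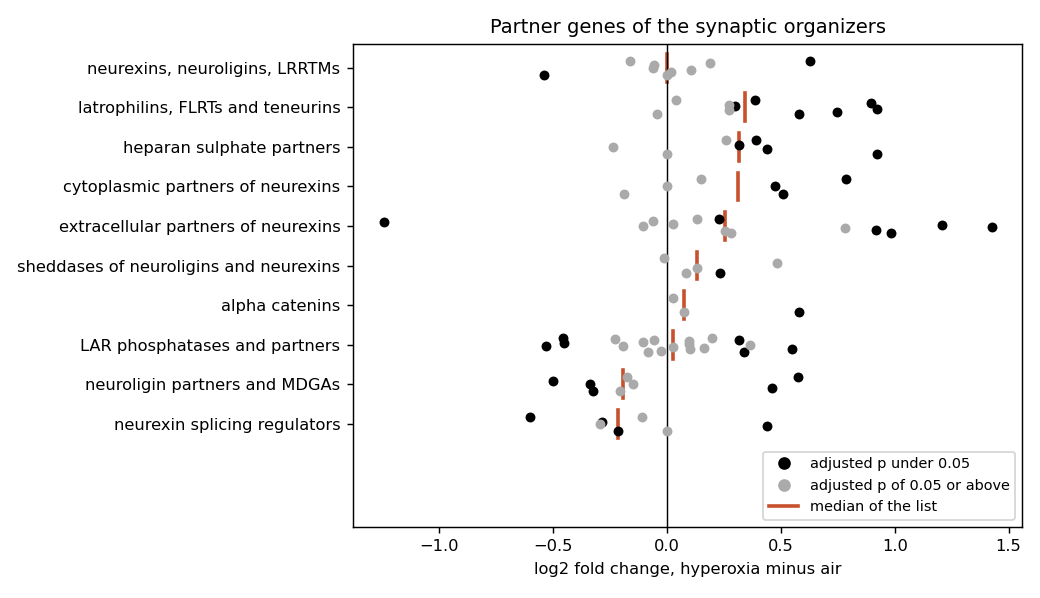
Log2 fold change (horizontal axis, hyperoxia minus air) of every tested gene in the 8 partner lists and the alpha catenin list and of the 9 organizer genes (top row), black where the adjusted p was under 0.05, with list medians as red bars. The organizers have their median near 0, at -0.00099, and the latrophilin, FLRT and teneurin list has the highest median, 0.34.

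For each organizer the nearest genes over the 6 libraries were found by the root mean square distance between log2 values centred on each gene's mean, among all genes tested. For Lrrtm1 these were Arl8a (distance 0.025), the gene of a lysosomal GTPase, and Wbscr22 (0.025), which fell by 0.52 each. Nearest to Lrrtm3 were Pamr1 (0.053) and Trabd2b (0.058), to Lrrtm2 Wnk2 (0.016) and Mafg (0.022), and to Lrrtm4 Ppp3r1 (0.026) and Mcm4 (0.028). Nlgn1 was nearest to Celsr2 (0.020) and Cdc42bpa (0.020), Nlgn2 to Adgrl1 (0.018) and Rnf41 (0.018), and Nlgn3 to Wdr75 (0.017) and Usp20 (0.020). For Nrxn2 the nearest were Egln3 (0.021) and the pseudogene Eif4a-ps4 (0.035), and for Nrxn3 Paqr9 (0.029) and 2900026A02Rik (0.032). These distances describe 6 libraries and were not tested.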

How the data were processed

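The authors deposited 1 signal value per gene and library, a read count divided by 1 size factor per library, described as DESeq2-normalized. The submitters' processing notes name FastQC, STAR 2.5.3a, HTSeq and DESeq2. The genome build, the annotation and the use of strand in counting were not named by any source used here. A further table, the authors' own comparison (fold changes and p-values), was not used. Libraries were polyA-selected and strand-specific.

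The 17778 genes whose deposited value averaged 10 or more entered a limma fit (version 3.58.1, R 4.3.3, trended variance) of log2(value + 1), giving hyperoxia minus air. P-values were adjusted by Benjamini-Hochberg over these genes, and the threshold was 0.05. As alternatives, recovered reads were fitted in edgeR 4.0.16 (quasi-likelihood, TMM) and in DESeq2 1.42.0. Further alternatives changed the pseudocount (0.5 or 5), the filter (none, or an average of 50), the scaling (TMM or quantile) or the trend (none), left out 1 library, or subtracted smooth effects of length and GC content fitted per library (mgcv 1.9.3). Ratios of members were tested by exact two-sided permutation with scipy 1.17.1. The scripts were tested on simulated data.

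Positions and lengths are from GENCODE M21 (GRCm38), which holds 99.68% of the gene identifiers, 84.82% with the same version, and the build of the counts may differ. Genes named are the 9 organizers, in each partner list all called genes where there are 3 or fewer and otherwise the 2 largest rises and falls, genes that overlap an organizer, and the 2 nearest genes of each. Of these, 1 gene is not reported here. The organizers and lists were chosen with earlier results of these data known. Replicate pairs differed by more than sampling noise (chi-square per gene from 6.04 to 42.4), and each library was counted once. P-values rest on the spread between these mice, and in limma the variance of a gene is drawn toward that of genes of like level. Pups were kept with their dams and no litter is given, so effects of litter and of exposure cannot be told apart.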

Additional observations from a re-analysis of the deposited data

How the results depend on the processing

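Over the 16 alternatives, Lrrtm1 kept its call, and Nrxn2 and Nlgn2 were never called. The count of called organizers, 2, became 6 after the length and GC correction (beside 34.5% of all genes tested) and 1 in limma without the trend (23.8%), and lay between 1 and 4 with 1 library left out (1 when any of the 3 air libraries was omitted, beside 17.1% to 20.6% of all genes, and 4 when hyperoxia library 2 was, beside 43.6%, which added Nlgn1 and Lrrtm2). The length and GC correction turned Nrxn3 to -0.18 and Nlgn1 to -0.22, both called, and the cause was not tested. The count of called genes in the partner and alpha catenin lists, 36, lay between 22 and 47 with 1 library left out, where 17.1% to 43.6% of all genes were called, and between 27 and 39 under the other alternatives.

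Among the ratios, Nrxn2 over Nrxn3 (-0.02) became 0.054 under quantile normalization and 0.056 after the length and GC correction, and lay between -0.12 and 0.10 with 1 library left out. Nlgn2 over Nlgn3 (-0.0072) became 0.025 and 0.16 under the same 2 settings and lay between -0.060 and 0.050 with 1 library left out. After the length and GC correction Nlgn1 over Nlgn2 was -0.19, without overlap, and Nlgn1 over Nlgn3 was -0.024. Lrrtm1 over Lrrtm4 kept its sign but shrank to -0.08 after the length and GC correction. With the length of the longest transcript in place of all exons, the ranks in air were 1 for Nrxn2, 2 for Nlgn2, 3 for Lrrtm1, 8 for Lrrtm4 and 9 for Lrrtm3, and Lrrtm1 kept the third place in hyperoxia. No paired analysis was possible because the labels give the 6 animals different numbers. The organizer with the fewest reads had 444 in 1 library, and the number of mice, 3 per group, limits the precision of every value.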

Other observations

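Lrrtm4 spans 791267 bases, and 8 unnamed gene models of the annotation lie in its span on the same strand without touching its exons. These genes were chosen after their values were seen. Gm44242 had 312, 291 and 282 normalized counts in air and 163, 211 and 117 in hyperoxia, or -0.89 in log2 (SE 0.19, adjusted p = 0.0076 by limma). Gm44228 had 118, 149.6 and 98.6 counts in air and 56.6, 81.5 and 42.5 in hyperoxia, or -1.04 in log2 (SE 0.25, adjusted p = 0.013 by limma). In both genes the groups did not overlap. Of all genes tested, 30.5% were called and 46.1% did not overlap. The exons of Lrrtm4 gave -0.16 (limma adjusted p 0.25), and a difference between them and these models was not tested. The other 6 were either below the filter (Gm44229 and Gm44231) or not called. The log2 fold changes of those not called went both ways: Gm20371 -0.66, Gm44230 0.83, Gm44240 -0.03 and Gm44241 -0.89. Spliced and unspliced RNA were not separated here.

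Antisense Gm14964, which shares 207 bases of exon with Nrxn2, had 157, 109.9 and 162 normalized counts in air and 93.7, 106 and 99.4 in hyperoxia, or -0.50 in log2 (SE 0.17, adjusted p = 0.054 by limma), beside -0.00099 for Nrxn2 itself. Where the counting ignored strand, reads in the shared bases cannot be told apart. The intronic gene Gm37573 within Nlgn1, on its strand, had 29.2, 40.7 and 29.8 counts in air and 59.2, 57.7 and 41.5 in hyperoxia, or 0.65 in log2 (SE 0.23, adjusted p = 0.059 by limma). Neither passed the threshold.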
